A study of Homo sapiens with 54 samples.

Results

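The 6 genes described here encode amino acid transporters of the plasma membrane: SLC7A11, SLC3A2, SLC7A5, SLC1A5, SLC1A4 and SLC7A1. They were found by their symbols in the platform annotation, which gave them 15 of the 22215 probe sets that measure transcripts on the array, and 14 of these passed the filter on low signal. Each gene is described by the passing probe set with the highest mean, and the other probe sets are given after it. The samples were HT-29 cells, an established epithelial line from a colon adenocarcinoma, that had first been kept in interferon-gamma at 200 U/ml for 24 h, a step called priming here. Their RNA was measured on Affymetrix oligonucleotide arrays. All 27 groups share the line and the priming, so each value below describes primed HT-29 cells.

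After priming, the cells were left untreated or stimulated with insulin, with the cytokine tumour necrosis factor (TNF), with the mitogen epidermal growth factor (EGF) or with TNF plus either of the others, and were collected at 4, 8 or 16 h. A treatment is named below by its factor and its dose in ng/ml. The 9 treatments were untreated, TNF 5, TNF 100, EGF 100, insulin 500, TNF 100 with EGF 100, TNF 100 with insulin 500, TNF 5 with EGF 1, and TNF 5 with insulin 5. Each treatment and time had 2 arrays, which the series describes as biological duplicates, making 54 arrays, and this number limits the precision of every value. Cells that were not primed, and cells collected before stimulation, were not analysed here. Of 11 markers of intestinal epithelium, EPCAM, CDH1, KRT8, KRT18, KRT19, KRT20 and LGALS4 had signals of at least 3304 on every array, CEACAM5 ranged from 453 to 1621 and VIL1 from 26.0 to 729.9, whereas CDX1 and CDX2 stayed at or below 48.3. Of 10 markers of fibroblasts, leukocytes and endothelium on the array 6 passed the filter, with median signals of 388 for COL1A1, 86.0 for COL1A2, 179.6 for DCN, 132 for CD3E, 89.4 for CD14 and 148 for PECAM1. The 4 that did not pass, COL3A1, PTPRC, VWF and CDH5, had medians from 8.99 to 60.9.

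Amino acid transporters of this kind work largely as exchangers. SLC7A11 (xCT) imports cystine in exchange for glutamate and so supplies cysteine for glutathione, and SLC7A5 (LAT1) imports leucine and other large neutral amino acids, which feed the growth-controlling kinase complex mTORC1. Both need the single-pass glycoprotein SLC3A2, the CD98 heavy chain, to reach the cell surface. SLC1A5 (ASCT2) exchanges glutamine and other neutral amino acids, its relative SLC1A4 (ASCT1) exchanges alanine, serine, cysteine and threonine, and SLC7A1 (CAT-1) imports arginine and lysine. Several of these genes are known targets of the transcription factor ATF4, which is made when amino acids run short or the endoplasmic reticulum is stressed; SLC7A11 is also a known target of the oxidant-responsive factor NRF2, and SLC7A5 and SLC1A5 of MYC. Colorectal tumour cells commonly carry high amounts of them.

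Because all 6 members rose with time in untreated cells, as described below, the short sequences at their transcription starts are shown first. RefSeq windows on GRCh38.p14, from 250 bases before to 50 bases after an annotated start, held 10 windows for 5 of the 6 members. SLC7A11 had no window and was not searched. The 10 windows were searched on both strands for TGATGNAA, the core of the amino acid response element that ATF4 dimers bind, where N is any base. This motif lay in 4 of the 10 windows, against 3.6% of the 35116 windows of all genes. By gene it lay in 4 of these 5 members, against 4.5% of 27305 genes. Counts by gene, here and below, favour the members, which had more windows a gene than genes at large. In the lines below, capitals mark the motif, the letters run 5′ to 3′ on the gene's own strand, and the motif is on the opposite strand in SLC3A2 and SLC1A4.
SLC3A2, chr11:62881725-62881748, gene on the plus strand: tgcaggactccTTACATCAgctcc
SLC1A5, chr19:46784893-46784922, gene on the minus strand: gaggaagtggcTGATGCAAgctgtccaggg
SLC1A4, chr2:64989381-64989410, gene on the plus strand: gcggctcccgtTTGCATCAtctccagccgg
SLC7A1, chr13:29595663-29595692, gene on the minus strand: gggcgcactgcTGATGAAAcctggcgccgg
The match in SLC3A2 began 38 bases after the first of its listed starts, and that in SLC7A1 began 8 bases after its start. That in SLC1A4 ran from 7 bases before the second of its listed starts to the first base of that transcript. That in SLC1A5 began 97 bases before the third of its listed starts. A match describes letters only and is no evidence of binding. The members include known targets of ATF4, NRF2 and MYC, and were chosen with earlier results of these data known. The shares here and below therefore test no cause.

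The E-box CACGTG, a palindrome that MYC with MAX binds, was found in 2 of the 10 windows against 7.3% of all windows, and by gene in 2 of the 5 members, SLC7A5 and SLC1A5, against 8.8% of genes. These 2 sites are shown because SLC7A5, of the 5 members searched, is the one without the ATF4 motif in its window.
SLC7A5, chr16:87869620-87869649, gene on the minus strand: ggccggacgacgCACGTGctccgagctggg
SLC1A5, chr19:46787326-46787355, gene on the minus strand: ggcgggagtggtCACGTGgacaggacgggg
The core of the antioxidant response element that NRF2 binds, TGACNNNGC, was present in 4 of the 10 windows against 13.3% of all windows, and by gene in 4 of the 5 members against 16.1% of genes. It overlapped none of the matches to the other motifs, and the SLC3A2 match is given as an example, chr11:62881652-62881680 on the plus strand: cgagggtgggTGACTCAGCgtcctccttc

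The deposited values are MAS5 signals, a linear measure of probe brightness, scaled so that the trimmed mean of every array was 500.2. Signals of different genes come from different probes and are not set against each other. Differences are given on the scale of log2(signal + 12.49), with the standard error of a fit over all 54 arrays, and understate the change of dim probe sets; folds are these differences turned back to a linear scale. A comparison was called where the limma F test over its times had a Benjamini-Hochberg adjusted p under 0.05 over 13422 probe sets. This test also passes for a difference at 1 time alone, so the counts of higher and lower genes in a list go by the sign of the printed difference, which can be small. The correlation between the 2 arrays of a group was 0.945 to 0.977. The ratio of ACTB signal at the 3′ end to that at the 5′ end, which is high in shortened RNA, had a log2 of 0.04 to 1.19 in replicate 2 of the 8 h groups and of -0.26 to -0.08 in replicate 1. It was highest in replicate 2 of TNF 100 (1.19) and of insulin 500 (0.98) at 8 h, so member calls that use these 2 arrays are given with and without them.

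In untreated cells all 6 transporters rose between 4 and 16 h. SLC7A11 rose 4.30-fold, SLC3A2 3.65-fold and SLC1A4 2.69-fold, and SLC7A5, SLC1A5 and SLC7A1 between 1.74-fold and 1.80-fold. Of all probe sets tested, 9.59% were called in this comparison and 5.7% were called higher, and their median difference was -0.01. With 2 arrays a group in a bulk sample, more cells with a transcript and more of that transcript per cell cannot be told apart.

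The 2 chains of the cystine exchanger are described first. Untreated cells gave SLC7A11 signals of 651 and 766 at 4 h, 696 and 623 at 8 h and 2498 and 3786 at 16 h. SLC3A2 signals were 1256 and 1248 at 4 h, 1371 and 1166 at 8 h and 4463 and 4748 at 16 h. In both genes the 4 and 8 h arrays lay close together and both 16 h arrays lay far above them. The difference between 16 and 4 h was 2.10 ± 0.20 for SLC7A11 (adjusted p = 1.07e-10) and 1.87 ± 0.19 for SLC3A2 (adjusted p = 2.5e-09).

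SLC7A5, the leucine transporter that shares the SLC3A2 chain, had untreated signals of 3278 and 4352 at 4 h, 2693 and 2703 at 8 h and 6504 and 7159 at 16 h. Its lowest arrays were those of 8 h, and its difference between 16 and 4 h was 0.85 ± 0.20 (adjusted p = 4.13e-05). SLC7A1, which carries arginine, had signals of 5081 and 5254, then 4389 and 3860.0, then 8164 and 9928, and the same order of times, with a difference of 0.80 ± 0.15 (adjusted p = 5.27e-06).

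Among the neutral amino acid exchangers, SLC1A4 had signals of 232 and 293 at 4 h, 231 and 243 at 8 h and 608 and 857 at 16 h, a difference between 16 and 4 h of 1.43 ± 0.27 (adjusted p = 0.000116). The glutamine exchanger SLC1A5 was the least even, with 2825 and 1653 at 4 h, 2201 and 1911 at 8 h and 4413 and 3286 at 16 h. Its 2 arrays at 4 h lay further apart than its means at 4 and 8 h, and its difference was 0.81 ± 0.22 (adjusted p = 0.00789). Without replicate 2 of the untreated 4 h group, its lower array, the SLC1A5 difference was 0.43. Its call was lost without replicate 1 of the untreated 16 h group (adjusted p = 0.281) and in a fit to the untreated arrays alone (adjusted p = 0.158), and that of SLC7A1 with the mean of its probe sets (0.49, adjusted p = 0.0537), each leaving 5 of 6.

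Over the mean of the 9 treatments all 6 also rose from 4 to 16 h, where 62.5% of all probe sets were called and 31.6% were higher. The differences were 1.93 ± 0.07 for SLC7A11, 1.52 ± 0.06 for SLC3A2, 1.49 ± 0.09 for SLC1A4, 0.91 ± 0.05 for SLC7A1, 0.87 ± 0.07 for SLC1A5 and 0.83 ± 0.07 for SLC7A5, with adjusted p from 2.13e-22 to 3.73e-12. The 18 arrays of a time ranged for SLC7A11 over 502, 888 and 1417 (lowest, median and highest) at 4 h, 623, 1372 and 2395 at 8 h and 2498, 3357 and 4399.9 at 16 h. Every 16 h array was above every 4 and 8 h array for SLC7A11, whereas for SLC3A2 the highest 8 h array, 4122 in TNF 100 with insulin 500, reached into the 16 h range, which began at 3222. More of the mean difference fell between 8 and 16 h than between 4 and 8 h in all 6. The split was 0.64 and then 1.29 for SLC7A11, 0.44 and 1.08 for SLC3A2, and 0.15 and 1.34 for SLC1A4, on the log2 scale with a standard error of at most 0.09. Of the markers of other cell types, CD14 (-1.16 ± 0.14), COL1A1 (0.14 ± 0.12) and PECAM1 (0.11 ± 0.13) were also called here, and their part in the result was not tested.

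**Figure D1:**
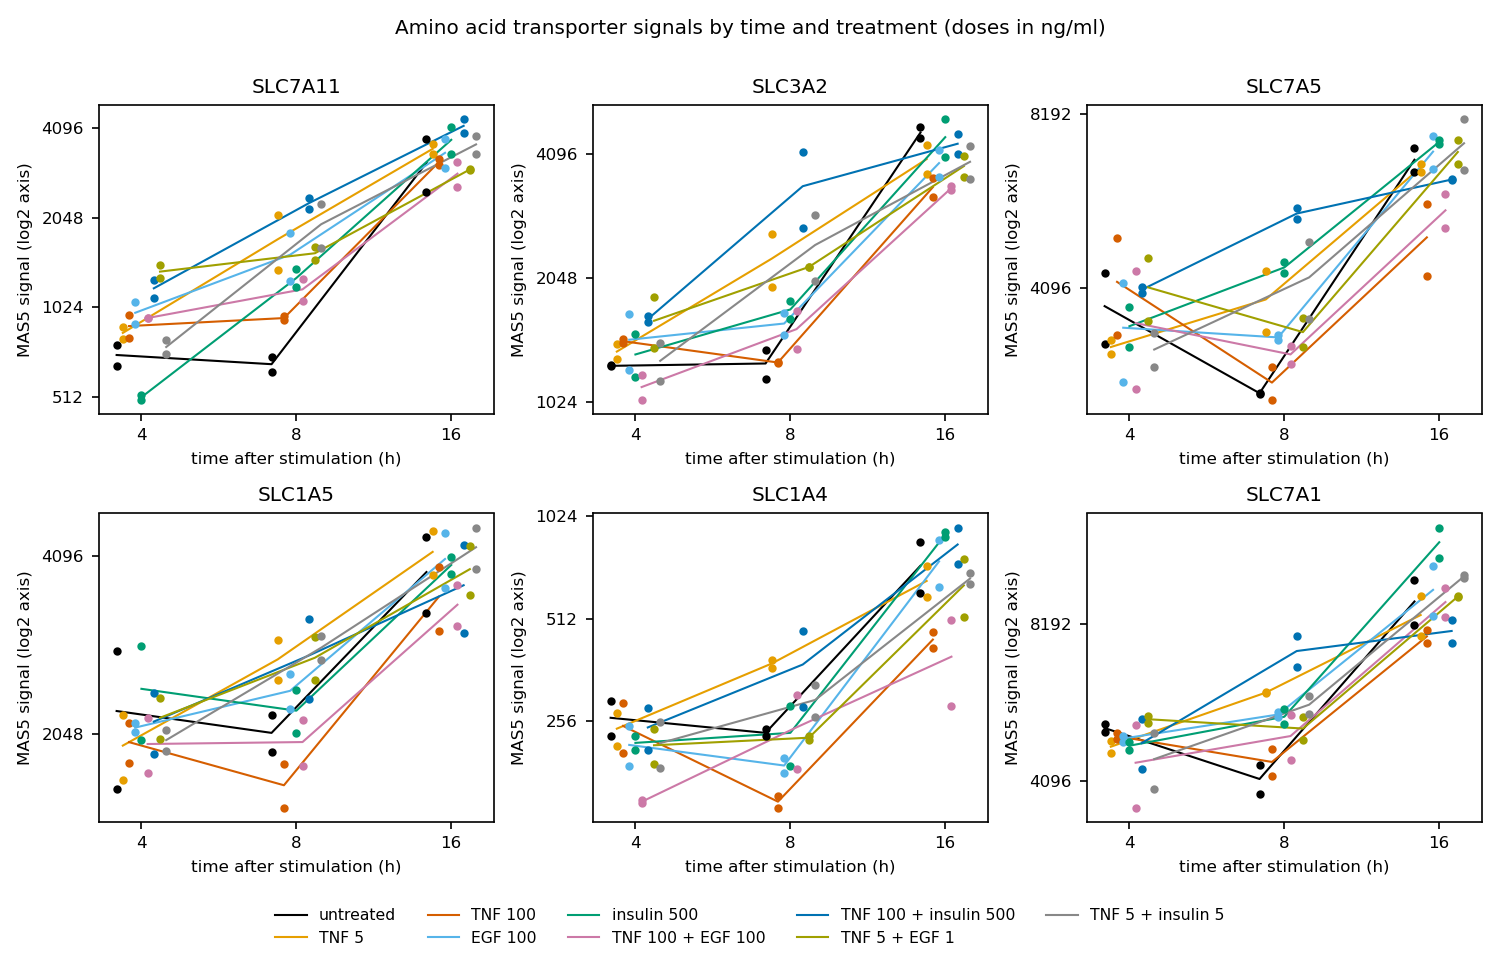
MAS5 signal (log2 axis) of the 6 transporters against time after stimulation (4, 8 and 16 h) for the 9 treatments; points are single arrays, 2 a group, set slightly apart sideways for legibility, and lines join the group means. In all 6 panels each treatment's mean is higher at 16 h than at 4 h, the SLC7A11 panel shows no overlap of 16 h with earlier times, and the untreated line (black) climbs mainly between 8 and 16 h.

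The step from 4 to 8 h varied among the treatments. In untreated cells the 8 minus 4 h difference of SLC7A11 was -0.10 ± 0.20 and in TNF 100 0.09 ± 0.20, against 1.00 ± 0.20 in TNF 5, 1.31 ± 0.20 in insulin 500, 0.95 ± 0.20 in TNF 100 with insulin 500 and 1.34 ± 0.20 in TNF 5 with insulin 5. The steps of SLC3A2 were 0.01 ± 0.19 in untreated cells, -0.17 ± 0.19 in TNF 100, 0.73 ± 0.19 in TNF 5, 0.37 ± 0.19 in insulin 500, 1.03 ± 0.19 in TNF 100 with insulin 500 and 0.91 ± 0.19 in TNF 5 with insulin 5. In insulin 500 the SLC3A2 step was smaller than that of SLC7A11. These steps are descriptions of the group means; the tests of how a treatment effect changed with time are given with each treatment.

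Genes of the ATF4 and amino acid response took the same direction in untreated cells. Of 31 genes listed, 27 were measured, and 22 rose and 0 fell. The other 5 missed the threshold, and the median difference of the list was 1.54 against -0.01 over all probe sets. The largest were GDF15 at 4.04 ± 0.23, a stress-induced cytokine, CHAC1 at 3.96 ± 0.35, which degrades glutathione, DDIT4 at 3.85 ± 0.24, which inhibits mTORC1, and ATF3 at 2.77 ± 0.16, a stress-induced transcription factor. ATF4 itself rose by 1.54 ± 0.21.

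Of 28 other amino acid transporters of the plasma membrane listed, 14 were measured, and 2 were called, with a median of 0.19. SLC38A2, a sodium-coupled carrier of small neutral amino acids that is itself an ATF4 target, rose by 2.12 ± 0.17, while its relative SLC38A1 passed the test, which takes in 8 h, with a 16 minus 4 h difference of 0.19 ± 0.22.

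Of the 19 measured genes of NRF2 and glutathione, 4 rose and 0 fell in untreated cells, led by OSGIN1 at 1.55 ± 0.33 and by NFE2L2, which encodes NRF2, at 1.44 ± 0.23. Of the 5 measured genes of MYC and its partners, MYC at 1.51 ± 0.24 and MAX at 0.78 ± 0.20 rose. Among 14 measured enzymes of glutamine, glutamate and arginine metabolism 5 were called. ASS1, which makes the arginine precursor argininosuccinate, rose by 1.47 ± 0.18 and the transaminase GOT1 by 1.36 ± 0.19, OAT, which breaks down ornithine, fell by 0.95 ± 0.31, and ODC1 passed with a 16 minus 4 h difference of 0.10 ± 0.14. Of 19 measured genes of amino acid sensing and mTORC1, DEPTOR rose by 0.72 ± 0.22, and the kinase EIF2AK3 passed with a 16 minus 4 h difference of 0.44 ± 0.30. The medians of these 4 lists were 0.23 for NRF2 and glutathione, 0.75 for MYC and partners, 0.18 for the enzymes and 0.13 for sensing, against 1.14 for the 6 transporters, all 6 of which were chosen with this course known.

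TNF at the lower dose raised SLC7A11 and SLC3A2, and both were called at 8 h but not at 4 or 16 h. SLC7A11 gave 2102 and 1369.8 in TNF 5 against 696 and 623 in untreated cells at 8 h, 878 and 803 at 4 h against the untreated 651 and 766, and 3643 and 3353 at 16 h against 2498 and 3786. The groups did not overlap at 4 and 8 h and overlapped at 16 h. The mean difference of the 3 times was 0.59 ± 0.11 (adjusted p = 5.15e-05) for SLC7A11 and 0.24 ± 0.11 (adjusted p = 0.0217) for SLC3A2. With 2 of 6 members called, the share of all probe sets called was 6.81%.

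At 8 h alone 3 of the 6 were higher in TNF 5, where 2.91% of all probe sets were called and 2.01% were higher. SLC7A11 was higher by 1.35 ± 0.20 (2.55-fold, adjusted p = 1.51e-05). SLC3A2, its partner chain, gave 2617 and 1940.0 against 1371 and 1166, a difference of 0.83 ± 0.19 (adjusted p = 0.01). The arginine carrier SLC7A1 gave 6052 and 6036 against 4389 and 3860.0, a difference of 0.55 ± 0.15 (adjusted p = 0.037). SLC7A5, SLC1A5 and SLC1A4 had differences of 0.53 ± 0.20, 0.41 ± 0.22 and 0.65 ± 0.27, which did not pass (adjusted p from 0.201 to 0.461). The SLC7A1 call was lost when any of the 4 arrays compared was left out (adjusted p up to 0.36), and that of SLC3A2 without replicate 1 of TNF 5 or replicate 2 of untreated cells (up to 0.214). Median centring of the arrays also ended both (adjusted p = 0.327 and 0.137).

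At 16 h the differences in TNF 5 ran from -0.22 for SLC3A2 to 0.18 for SLC7A11, with 0 of 6 called while 4.87% of all probe sets were. At 4 h limma also called 0 of 6 (0 at an unadjusted p under 0.05, as at 16 h), and 1.88% of all probe sets. The effect of TNF 5 changed over the 3 times for SLC7A11 (adjusted p = 0.0266; 0.916% of all probe sets), although its 16 and 4 h differences, 0.18 and 0.25, were alike. The SLC3A2 call over all times was lost without replicate 1 of TNF 5 or replicate 2 of untreated cells at 8 h (adjusted p up to 0.296), with median centring (0.216) and in a fit to the 2 treatments alone (0.071), and without the 8 h arrays neither gene was called (SLC7A11 0.21, SLC3A2 -0.05). The change over time was not called without either untreated 8 h array, among others (highest adjusted p 0.296, without replicate 1 of TNF 5 at 8 h).

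**Figure D2:**
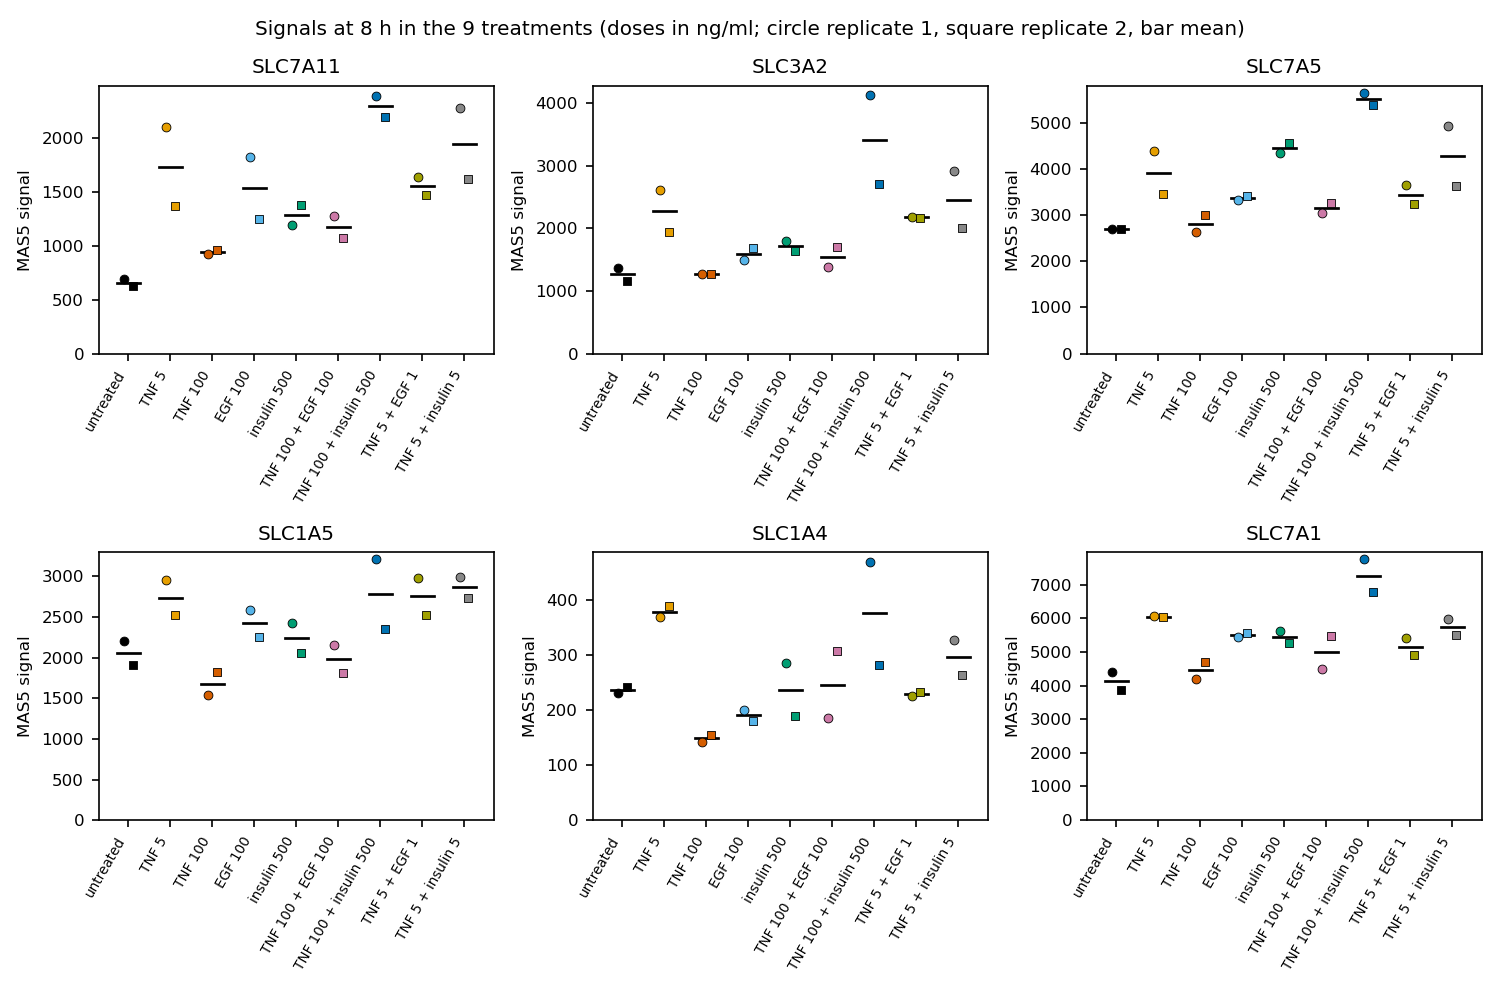
MAS5 signal (linear axis from 0) of the 6 transporters at 8 h in the 9 treatments; circles are replicate 1, squares replicate 2 and bars the mean of both. Untreated cells have the lowest mean for SLC7A11, SLC3A2, SLC7A5 and SLC7A1, TNF 100 has the lowest for SLC1A5 and SLC1A4, and TNF 100 with insulin 500 has the highest for SLC7A11, SLC3A2, SLC7A5 and SLC7A1.

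Around the members, 9 of the 27 measured genes of the ATF4 and amino acid response were higher with TNF 5 over the 3 times and 1 was lower, TRIB3 at -0.04 ± 0.09, and the median of the list was 0.12 against -0.037 over all probe sets. VEGFA, a growth factor for blood vessels, was at 1.13 ± 0.14, CHAC1 at 0.72 ± 0.20, ATF3 at 0.69 ± 0.09 and HERPUD1, which takes part in the degradation of proteins of the endoplasmic reticulum, at 0.63 ± 0.12. Of the 14 other transporters, 3 were higher, SLC6A14 at 0.97 ± 0.23, SLC38A2 at 0.35 ± 0.10 and SLC38A1 at 0.32 ± 0.13, and the glutamate carrier SLC1A1 was lower at -0.44 ± 0.10. Of the enzymes, ASS1 was at 1.20 ± 0.11. None of the 19 genes of NRF2 and glutathione passed.

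TNF at the higher dose left all 6 uncalled by limma against untreated cells (2 of 6 at an unadjusted p under 0.05), although 16.3% of all probe sets were called. SLC7A11 gave 964 and 808 at 4 h, 928 and 958 at 8 h and 3226 and 3085 at 16 h. At 4 and 8 h its arrays lay above those of untreated cells, and at 16 h they lay between the 2 untreated arrays. The difference over the 3 times was 0.29 ± 0.11 (95% interval 0.06 to 0.52, adjusted p = 0.158).

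For SLC1A4 the sign was the opposite, with 143 and 155 in TNF 100 against 231 and 243 at 8 h and 469.6 and 420.1 against 608 and 857 at 16 h. The TNF 100 arrays lay below the untreated arrays at both times, and the difference over the 3 times was -0.47 ± 0.16 (95% interval -0.79 to -0.15, adjusted p = 0.09). The other 4 members had differences from -0.19 for SLC1A5 to -0.05 for SLC7A1, and their 95% intervals reached from -0.44 to 0.15. At the single times limma called 0 of 6 as well (0, 2 and 3 at an unadjusted p under 0.05 at 4, 8 and 16 h), while 4.37%, 5.63% and 12.3% of all probe sets were called in turn. The change of the TNF 100 effect over time was also called for 0 of 6, with 0 at an unadjusted p under 0.05 and 2.44% of all probe sets called. In TNF 100 against untreated cells 6 of the 27 measured genes of the ATF4 and amino acid response were higher and 6 lower, with VEGFA at 0.95 ± 0.14, ATF3 at 0.79 ± 0.09 and GDF15 at -0.67 ± 0.13. Among the enzymes ASS1 was at 1.56 ± 0.11.

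Set against each other, the higher dose gave lower SLC1A4 than the lower dose. At 8 h SLC1A4 was 143 and 155 in TNF 100 and 368 and 389 in TNF 5, with no overlap, a difference of -1.28 ± 0.27 (adjusted p = 0.0359). The TNF 100 signals lay near the filter level of 138.9. This 8 h call was lost without the filter (limma adjusted p = 0.0631) and with the mean of its probe sets (-0.90, adjusted p = 0.12). A fit to the 2 treatments alone also ended it (adjusted p = 0.168). As a mean of the 3 times SLC1A4 fell by 0.60 ± 0.16 (adjusted p = 0.0249). This was the 1 of 6 members called, against 1.27% of all probe sets over the 3 times and 0.142% at 8 h. The 2 doses gave 0 of 6 calls at 4 h (0.641% of all probe sets) and at 16 h (0.447%), with 0 and 1 at an unadjusted p under 0.05. Without the 2 arrays of high ACTB ratio the difference was -0.62 and was not called (adjusted p = 0.0828 over the 3 times and 0.159 at 8 h). Leaving out any of the 4 arrays of 8 h, or replicate 2 of either dose at 16 h, also ended the call over the 3 times (adjusted p up to 0.143), as did a fit to the 2 treatments alone (0.109) and the mean of its probe sets (-0.37, adjusted p = 0.055).

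All 6 members were lower in TNF 100 than in TNF 5 on average, and SLC1A4 alone was called over the 3 times. The median difference of all probe sets was -0.0498 as deposited and 0.0147 with median centring. SLC7A11 at 8 h was 928 and 958 in TNF 100 and 2102 and 1369.8 in TNF 5, and SLC3A2 was 1274 and 1277 and 2617 and 1940.0, again without overlap. Their 8 h differences were -0.84 ± 0.20 (adjusted p = 0.0594) and -0.81 ± 0.19 (adjusted p = 0.0629). With the replicate number as a block within 8 h both passed (adjusted p = 0.0174 and 0.0257 at 8 h, and 0.0262 and 0.0382 over the 3 times). The labels do not say what a replicate number marks, and at 8 h it also divides the arrays by their ACTB ratio.

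EGF 100 raised SLC7A11, and no other member was called, in a comparison where 0.596% of all probe sets were called. SLC7A11 gave 1067 and 898 at 4 h, 1827 and 1254 at 8 h and 3021 and 3761 at 16 h. The arrays lay above the untreated ones at 4 and 8 h and within their range at 16 h. The difference was 0.59 ± 0.11 over the 3 times (adjusted p = 0.00171) and 1.19 ± 0.20 at 8 h (2.27-fold, adjusted p = 0.00146, with 0.156% of all probe sets called). Without replicate 1 of EGF 100 at 8 h, the higher of its 2 arrays, both calls were lost (adjusted p = 0.0853 and 0.167), and the 8 h call was also lost without replicate 2 of untreated cells. A fit to the 2 treatments alone ended both as well (adjusted p = 0.274 and 0.345), and the call over the 3 times did not hold with the mean of its probe sets (0.0527) or without the 8 h arrays (0.30, adjusted p = 0.711).

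SLC3A2, which forms the exchanger with SLC7A11, did not pass with EGF 100. Its 8 h arrays were 1486 and 1686, and its difference over the 3 times was 0.09 ± 0.11 (95% interval -0.14 to 0.31). The other 4 members had differences from -0.17 for SLC1A4 to 0.14 for SLC7A1. None of the 27 measured genes of the ATF4 and amino acid response and none of the 19 of NRF2 and glutathione passed in this comparison. SLC38A2 was the 1 of 14 other transporters that did, at 0.41 ± 0.10. For the change of the EGF effect over time limma called 0 of 6 (1 at an unadjusted p under 0.05, with 0.0447% of all probe sets called).

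With insulin 500 SLC7A11 was called, with a course that changed sign. It gave 520.2 and 502 at 4 h, 1197 and 1375 at 8 h and 3370.2 and 4131 at 16 h. At 4 h both arrays lay below both untreated arrays and at 8 h both lay above them. The differences were -0.46 ± 0.20 at 4 h (adjusted p = 0.848), 0.95 ± 0.20 at 8 h (adjusted p = 0.0515, and 0.0136 with the replicate block within 8 h) and 0.28 ± 0.20 at 16 h. Over the 3 times the mean was 0.26 ± 0.11 (adjusted p = 0.0296; 0.231% of all probe sets called). At single times limma called 0 of 6 (1, 4 and 1 at an unadjusted p under 0.05 at 4, 8 and 16 h), with 0.156%, 0.0447% and 0.0224% of all probe sets called.

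This call did not hold without the 2 arrays of high ACTB ratio, 1 of which is an insulin 500 array (adjusted p = 0.253), and 6 of the 12 single arrays left out in turn also ended it (adjusted p up to 0.238). It was also lost with median centring (adjusted p = 0.391), without the intensity trend (0.0554), in a fit to the 2 treatments alone (0.935), without the 8 h arrays (mean difference -0.09) and with the mean of its probe sets (mean difference 0.06), and the mean difference was 0.16 without replicate 1 of untreated cells at 16 h. The change of the insulin effect over time was not called for SLC7A11 (16 minus 4 h 0.74 ± 0.28, adjusted p = 0.132; 0.0298% of all probe sets called) but passed with the replicate block within 8 h (adjusted p = 0.0233). SLC7A5, the leucine carrier, gave 4346 and 4555 at 8 h against 2693 and 2703, without overlap, and 0.72 ± 0.20 did not pass (adjusted p = 0.435). SLC7A1 gave 12548 and 10965 at 16 h, the 2 highest of its 54 arrays, against 8164 and 9928 in untreated cells; that difference of 0.38 ± 0.15 did not pass either (adjusted p = 0.778).

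Insulin 500 added to TNF 100 raised 4 of the 6 members as a mean of the 3 times. In this comparison 67 of 13422 probe sets were called (0.499%) and 0.41% were higher. Mean rises were 1.62-fold for SLC7A11, 1.63-fold for SLC1A4, 1.55-fold for SLC3A2 and 1.35-fold for SLC7A5. The 4 h means of SLC7A5 (4073 against 4202 in TNF 100) and SLC1A4 (245.8 against 248.4) were not higher. At 8 h SLC7A1 also passed, making 5 of 6, against 50 probe sets in all (0.373%, and 0.32% higher). At 4 h and 16 h limma called 0 of 6 (1 and 2 at an unadjusted p under 0.05), with 0.0596% and 0.164% of all probe sets called.

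At 8 h SLC7A11, the cystine exchanger, was 2395 and 2195 in TNF 100 with insulin 500 and 928 and 958 in TNF 100, a difference of 1.27 ± 0.20 (adjusted p = 0.000288). SLC3A2, its partner chain, was 4122 and 2706 against 1274 and 1277, a difference of 1.38 ± 0.19 (adjusted p = 9.81e-05). The groups did not overlap for either gene. Over the 3 times the differences were 0.70 ± 0.11 (adjusted p = 0.000841) and 0.64 ± 0.11 (adjusted p = 0.000397). With single arrays left out these ran from 0.66 to 0.74 for SLC7A11 and from 0.53 to 0.74 for SLC3A2. The 8 h differences, which only arrays of 8 h can move, ran from 1.21 to 1.33 and from 1.08 to 1.68.

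SLC7A5 gave 5643 and 5387 at 8 h against 2631 and 2999 in TNF 100, a difference of 0.97 ± 0.20 (adjusted p = 0.0151). SLC1A4 gave 469.9 and 282 against 143 and 155, a difference of 1.22 ± 0.27 (adjusted p = 0.0299), and at 16 h 743 and 948 against 469.6 and 420.1, which did not pass at 0.90 ± 0.27. SLC7A1 gave 7758 and 6773 against 4189 and 4706 at 8 h, a difference of 0.71 ± 0.15 (adjusted p = 0.0202). SLC1A5, the exchanger for glutamine, gave 3211 and 2348 against 1535 and 1818 at 8 h, and its 0.71 ± 0.22 was not called (adjusted p = 0.208).

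Replicate 2 of TNF 100 at 8 h is the array with the highest ACTB ratio, so the calls were repeated without it and without replicate 2 of insulin 500. SLC7A11 (adjusted p = 0.012 at 8 h) and SLC3A2 (adjusted p = 0.00765) stayed called, as they did over the 3 times, while SLC7A5, SLC1A4 and SLC7A1 had 8 h differences of 1.06, 1.28 and 0.79 and did not (adjusted p from 0.0922 to 0.167). For SLC7A1 over the 3 times the adjusted p was 0.087, and 0.049 with the replicate block within 8 h. With single arrays left out, the call of SLC7A5 over the 3 times was lost in 8 of 12 fits (adjusted p up to 0.247) and that of SLC1A4 in 5 of 12 (up to 0.195, without replicate 1 of the mixture at 8 h). Leaving out that 1 array also ended the 8 h calls of SLC7A5, SLC1A4 and SLC7A1 (adjusted p = 0.158, 0.558 and 0.359), which leaves 2 of 6, as did leaving out either TNF 100 array of 8 h. The SLC7A5 call over the 3 times was lost too without the filter (0.0708), with median centring (0.372) and without the intensity trend (0.0772), and that of SLC1A4 with the mean of its probe sets (0.0599). A fit to the arrays of these 2 treatments alone kept SLC7A11 and SLC3A2 at 8 h but gave adjusted p of 0.0652 and 0.11 over the 3 times, where 0 of 6 were called, as without the 8 h arrays.

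**Figure D3:**
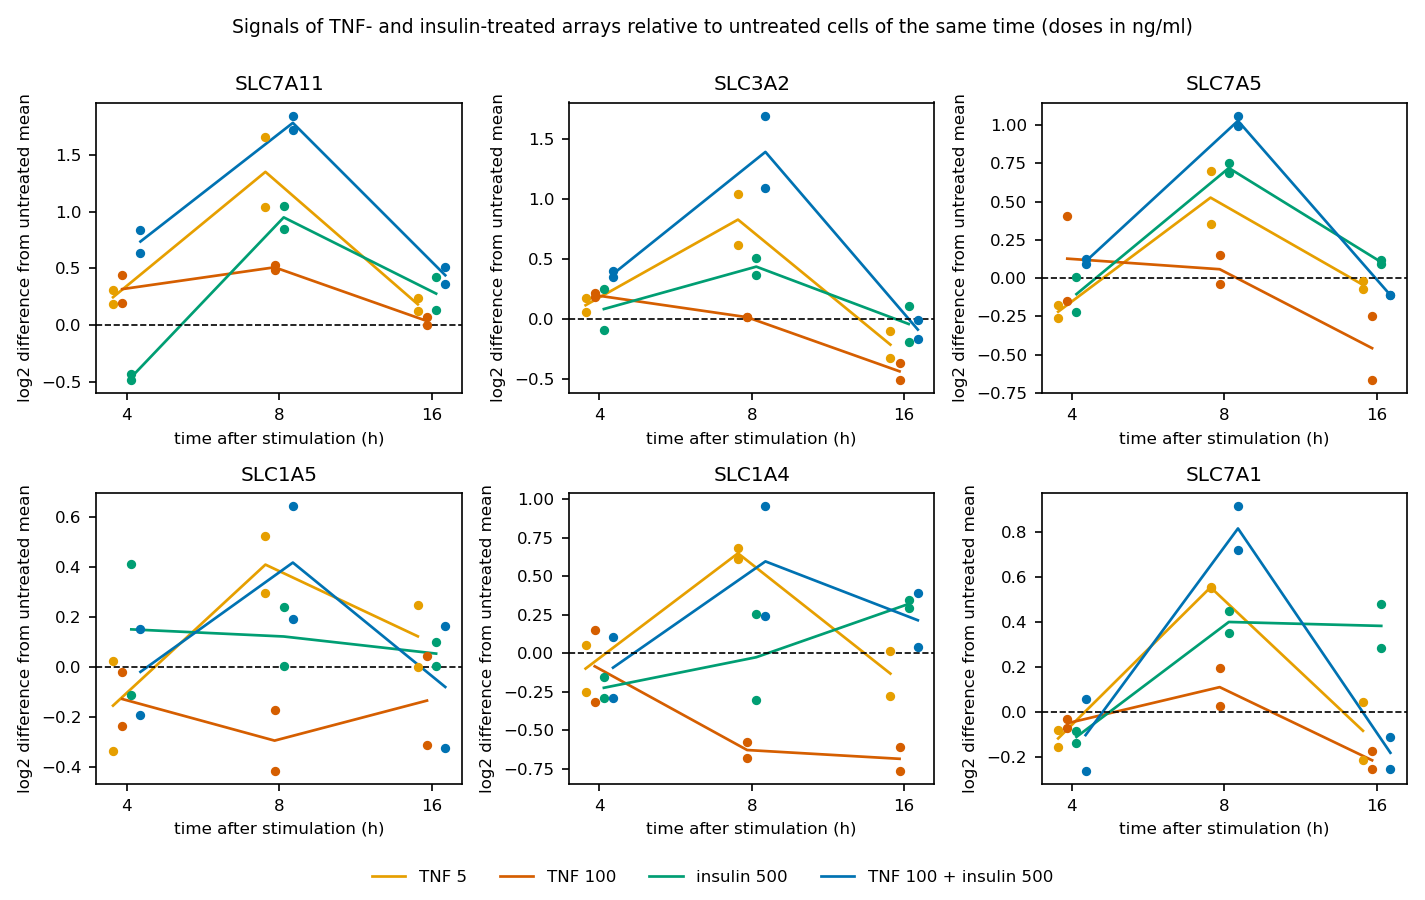
Log2 difference of each array from the untreated mean of the same time, against time (4, 8 and 16 h), for TNF 5, TNF 100, insulin 500 and TNF 100 with insulin 500; points are arrays, 2 a group, set apart sideways for legibility, lines join the group means and the dashed line is the untreated mean. At 8 h the mean of TNF 100 with insulin 500 lies above that of TNF 100 in every panel. At 16 h all 4 SLC7A11 means lie closer to the dashed line than at 8 h.

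The wider amino acid response moved in the same comparison. Of the 27 measured genes of that list 9 were higher and 0 lower over the 3 times, with a median of 0.36 against -0.003 over all probe sets; CHAC1 was at 1.45 ± 0.20, DDIT4 at 1.27 ± 0.14, GDF15 at 0.80 ± 0.13 and PSPH, the last enzyme of serine synthesis, at 0.66 ± 0.17. At 8 h 8 were higher, PSPH by 1.76 ± 0.30 and GDF15 by 1.52 ± 0.23 most. SLC38A1 was the 1 of 14 other transporters that passed, at 0.48 ± 0.13 over the 3 times and 1.25 ± 0.22 at 8 h, and ODC1, the first enzyme of polyamine synthesis, was the 1 of 14 enzymes, at 0.40 ± 0.08. None of the 19 genes of NRF2 and glutathione, the 19 of amino acid sensing and mTORC1 or the 5 of MYC and partners passed. These list counts use the TNF 100 array of highest ACTB ratio and were not repeated without it. With median centring 22 probe sets in all were called in this comparison, against 67 as deposited.

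Read from the other side, TNF 100 added to insulin 500 raised SLC7A11 and SLC3A2. Here 3 of 6 members were called and 20.3% of all probe sets were. SLC7A11 at 4 h was 1271 and 1104 in the mixture and 520.2 and 502 in insulin 500, a difference of 1.19 ± 0.20 (adjusted p = 7.24e-05; 4.01% of all probe sets called). This was the lowest adjusted p of any member at 4 h, and the lower array of the mixture lay above the higher array of insulin 500. With single arrays left out the 4 h difference ran from 1.09 to 1.29, and only arrays of 4 h can move it. At 8 h the difference was 0.83 ± 0.20 (adjusted p = 0.00349, and 0.0562 without replicate 1 of the mixture), and over the 3 times 0.73 ± 0.11 (adjusted p = 7.46e-06). Without the 2 arrays of high ACTB ratio, 1 of which is an insulin 500 array, the 8 h differences were 0.93 for SLC7A11 (adjusted p = 0.0153) and 0.89 for SLC3A2 (0.0199), and all 3 members stayed called over the 3 times (adjusted p from 2.35e-05 to 0.0291).

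SLC3A2 at 8 h was 4122 and 2706 in the mixture against 1800.4 and 1630.2 in insulin 500, a difference of 0.96 ± 0.19 (adjusted p = 0.000635; 10.3% of all probe sets called), and over the 3 times 0.40 ± 0.11 (adjusted p = 0.00178). Both SLC3A2 calls were lost without replicate 1 of the mixture at 8 h, its higher array (adjusted p = 0.0808 at 8 h and 0.0879 over the 3 times). SLC7A1 had differences of opposite sign at 8 and 16 h. At 16 h it was 8337 and 7542 in the mixture and 12548 and 10965 in insulin 500, and fell by 0.56 ± 0.15 (adjusted p = 0.00826; 15.6% of all probe sets called), whereas the 8 h difference was 0.42 ± 0.15 and did not pass. The 16 h call was lost without replicate 1 of insulin 500 or replicate 2 of the mixture at 16 h (adjusted p up to 0.137), with median centring (-0.32, adjusted p = 0.329), with the mean of its probe sets (adjusted p = 0.206) and in a fit to the 2 treatments alone (0.0606). It held without replicate 1 of the mixture at 16 h, which had the lowest median signal of the 54 arrays (110.9) and a log2 ACTB ratio of 0.63. The call over the 3 times was lost without replicate 1 of insulin 500 at 16 h (adjusted p = 0.0539) and in a fit to the 2 treatments alone (0.088). Its mean over the 3 times was -0.05, and was of the opposite sign and not called under median centring of the arrays (0.04) and with the mean of its probe sets (0.13).

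In that comparison 20.3% of all probe sets were called, and the counts of the lists stand beside this share. Of the 27 measured genes of the ATF4 and amino acid response 14 were higher and 4 lower. ATF3 was at 1.15 ± 0.09 and CTH, the last enzyme of cysteine synthesis, at 0.94 ± 0.23. Of the 19 genes of NRF2 and glutathione 3 were higher, GCLC, the catalytic subunit of the first enzyme of glutathione synthesis, at 0.43 ± 0.09, TXNRD1 at 0.38 ± 0.08 and NFE2L2 at 0.31 ± 0.13. ASS1 was at 2.32 ± 0.11, and of the other transporters SLC6A14 was at 1.66 ± 0.23 and SLC1A1 at -0.81 ± 0.10. The comparisons of the mixture with TNF 100 and with insulin 500 share the mixture's 6 arrays.

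For EGF 100 added to TNF 100 limma called 0 of 6 members (1 at an unadjusted p under 0.05), against 0.224% of all probe sets. The single times gave 0 of 6 too by limma (1, 1 and 0 at an unadjusted p under 0.05), with 0.0522% of all probe sets called at 4 h and 0.0298% at 8 h and at 16 h. At 8 h SLC7A11 was 1281 and 1075 in the mixture and 928 and 958 in TNF 100, and SLC3A2 was 1378 and 1696 against 1274 and 1277. Both genes lay higher in the mixture without overlap, by 0.31 ± 0.20 and 0.26 ± 0.19, and neither passed. The 6 mean differences of the 3 times ran from -0.08 for SLC1A4 to 0.09 for SLC7A11, and the 95% interval of SLC7A11 was -0.14 to 0.32.

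TNF 100 added to EGF 100 lowered SLC1A4 at 16 h, where it was 285 and 508 in the mixture and 636 and 873 in EGF 100. It fell by 0.95 ± 0.27 at 16 h (adjusted p = 0.0176) and by 0.38 ± 0.16 over the 3 times (adjusted p = 0.0273). It was the 1 of 6 members called, with 14.4% of all probe sets over the 3 times and 12.8% at 16 h. At 4 h and 8 h limma called 0 of 6, with 0 at an unadjusted p under 0.05, against 2.47% and 5.71%. Without replicate 1 of the mixture at 16 h, the lowest SLC1A4 array of that time, both calls were lost at -0.54 and -0.24 (adjusted p = 0.345 and 0.242), as they were without replicate 2 of EGF 100 at 16 h; the call over the 3 times was also lost without replicate 1 of EGF 100 at 4 h, with quantile normalization (-0.27, adjusted p = 0.0595) and with the mean of its probe sets (0.101). A fit to the 2 treatments alone ended both (adjusted p = 0.0716 and 0.138). The monocyte marker CD14 was also lower here, at -1.24 ± 0.42 at 16 h, and its part in the result was not tested. For SLC1A4 at 8 h the sign was the opposite, 0.31 ± 0.27, and did not pass.

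EGF 100 and insulin 500 were also set against each other. SLC7A11 at 4 h was 1067 and 898 in EGF 100 and 520.2 and 502 in insulin 500, higher by 0.92 ± 0.20 (adjusted p = 0.0269; 0.238% of all probe sets called). The groups did not overlap at 4 h and did at 8 and 16 h, and the 4 h call was lost when any of its 4 arrays was left out (adjusted p up to 0.482), with median centring (0.287), without the intensity trend (0.0522) and in a fit to the 2 treatments alone (0.356). Over the 3 times limma called 0 of 6 members (1 at an unadjusted p under 0.05), against 0.618% of all probe sets; SLC7A11 was at 0.34 ± 0.11 (adjusted p = 0.0529, and 0.0124 with the replicate block within 8 h).

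The low-dose mixtures did not differ detectably from TNF 5 for any member. With EGF 1 added to TNF 5, limma called 0 of 13422 probe sets (0%), with 560 at an unadjusted p under 0.05; with insulin 5 added it called 0 (0%), with 279 at that p. SLC7A11 gave 1417 and 1285 at 4 h in TNF 5 with EGF 1, the 2 highest 4 h arrays, against 878 and 803 in TNF 5, and the difference of 0.68 ± 0.20 did not pass (adjusted p = 0.508). In TNF 5 with insulin 5 it gave 2281 and 1619.6 at 8 h, overlapping the 2102 and 1369.8 of TNF 5. Over the 3 times the 95% intervals for SLC7A11 were -0.12 to 0.34 for added EGF 1 and -0.21 to 0.25 for added insulin 5.

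Whether a mixture departs from the sum of its parts on the log2 scale was tested as an interaction, and limma called 0 of 6 members for TNF 100 with EGF 100 (0.0298% of all probe sets) or with insulin 500 (0.00745%). With insulin 500 the interaction was 0.68 ± 0.22 for SLC1A4 (95% interval 0.23 to 1.14), 0.48 ± 0.16 for SLC3A2 (0.16 to 0.80) and 0.44 ± 0.16 for SLC7A11 (0.12 to 0.77), with adjusted p from 0.551 to 0.756. With EGF 100 that of SLC7A11 was -0.50 ± 0.16. At an unadjusted p under 0.05 the counts were 1 of 6 with EGF 100 and 3 of 6 with insulin 500. These intervals are not adjusted for the number of probe sets.

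**Figure D4:**
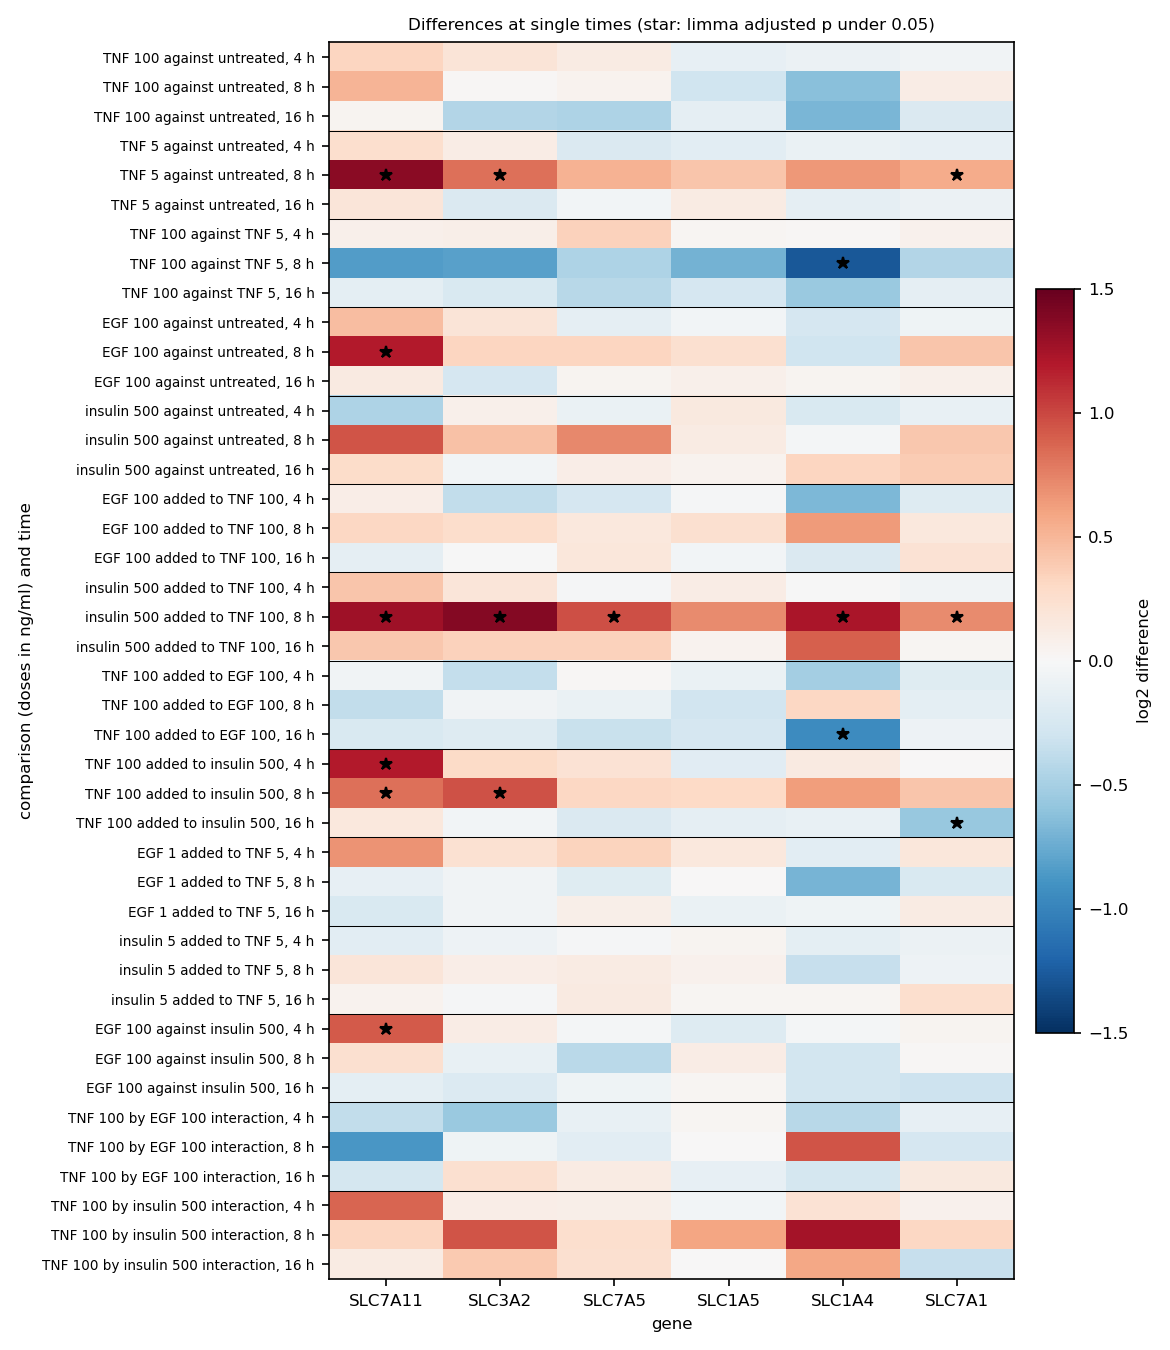
Log2 difference (colour, red higher and blue lower) of the 6 transporters in each comparison at 4, 8 and 16 h; stars mark a limma adjusted p under 0.05 over 13422 probe sets. Most stars fall at 8 h, 5 of them in the row of insulin 500 added to TNF 100, and SLC1A5 has none.

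Taking all 9 treatments at once, 5 of 6 members differed among treatments and SLC1A5 did not (adjusted p = 0.542), where 18.7% of all probe sets were called. The adjusted p was 6.97e-07 for SLC7A11, 0.000281 for SLC3A2, 0.00667 for SLC1A4, 0.017 for SLC7A1 and 0.0225 for SLC7A5. A fit without the 8 h arrays, which has fewer arrays and times, called 2 of 6.

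The order of the SLC7A11 means at 8 h ran from TNF 100 with insulin 500 (2295) through TNF 5 with insulin 5 (1950.1), TNF 5 (1736), TNF 5 with EGF 1 (1558), EGF 100 (1540.3), insulin 500 (1286) and TNF 100 with EGF 100 (1178) to TNF 100 (943) and untreated cells (659.7). Neighbours overlapped throughout except at the lower end, where TNF 100 lay below TNF 100 with EGF 100 and above untreated cells without overlap. SLC3A2 had the same 4 treatments on top, from 3414 in TNF 100 with insulin 500 to 2175 in TNF 5 with EGF 1, and the same 2 at the bottom, 1275 in TNF 100 and 1268 in untreated cells. For SLC7A5 insulin 500 (4451) stood next to TNF 100 with insulin 500 (5515).

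At 16 h the order was another. Untreated cells had the highest SLC3A2 mean (4606) and TNF 100 with EGF 100 the lowest (3381). For SLC7A5, SLC1A5, SLC1A4 and SLC7A1 TNF 100 had the lowest or next to lowest mean, 5016, 3496, 445 and 7751. None of the 6 members passed between TNF 100 and untreated cells at 16 h on its main probe set by limma (3 at an unadjusted p under 0.05).

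The members SLC7A11, SLC1A4 and SLC7A1 had further probe sets, each a separate set of oligonucleotides against the transcript. All 9 were compared with the main probe set of their gene over the 27 group means, and 8 of them passed the filter on low signal. Their correlations, which describe the same arrays and share the course in time, ran from 0.151 to 0.964.

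For SLC7A11, probe set 217678_at followed the main one, 209921_at, most closely (r = 0.964) and was called for time in untreated cells at 2.06 ± 0.25 and for TNF 100 added to insulin 500 at 0.88 ± 0.14. For TNF 5, EGF 100 and insulin 500 added to TNF 100 it gave 0.44 ± 0.14, 0.39 ± 0.14 and 0.63 ± 0.14, of the same sign as 209921_at but not called (adjusted p = 0.14, 0.845 and 0.11). For insulin 500 alone its sign was the opposite, -0.16 ± 0.14. The third, 207528_s_at, was called for time alone, at 0.84 ± 0.29 in untreated cells.

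For SLC1A4, 209610_s_at rose with time in untreated cells by 2.02 ± 0.37 and 212810_s_at by 1.63 ± 0.35, while 209611_s_at did not pass there at 0.66 ± 0.36. In TNF 100 against TNF 5 the 3 gave -0.31 ± 0.21, -0.45 ± 0.21 and -0.13 ± 0.20, all negative like the main probe set and none called. In insulin 500 added to TNF 100 at 8 h 209610_s_at gave 1.39 ± 0.37 (adjusted p = 0.0919). At 16 h it was lower in TNF 100 than in untreated cells, where it fell by 1.14 ± 0.37 (adjusted p = 0.0347).

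For SLC7A1, 212290_at and 212292_at rose with time over all 9 treatments by 0.58 ± 0.09 and 0.49 ± 0.10. For time in untreated cells their differences of 0.59 ± 0.27 and 0.43 ± 0.30 did not pass (limma adjusted p = 0.059 and 0.071). Both were called in no comparison of treatments over the 3 times. Probe set 206566_at was called in none (0.13 ± 0.91 for time in untreated cells), and 215979_s_at, with a mean signal of 28.2, did not pass the filter. The calls for SLC7A1 between treatments, and its call for time in untreated cells, therefore come from 212295_s_at alone.

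The 6 transporters and the genes most like them were described by the Pearson correlation of log2 group means over the 27 groups, among 8099 other genes. The correlation between any 2 members ran from 0.863 (SLC7A11 with SLC1A4) to 0.96 (SLC7A11 with SLC3A2). With the mean of each time removed, so that the common course in time no longer counts, it ran from 0.402 (SLC7A11 with SLC1A4) to 0.829 (SLC7A5 with SLC7A1), and was 0.779 for the exchanger pair SLC7A11 and SLC3A2 and 0.804 for SLC3A2 and SLC7A5, which form the leucine carrier. These points share arrays and times and are no independent replicates.

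The 3 genes most like SLC7A11 were CEBPG (r = 0.955), a partner of ATF4, DDIT3 (0.945), the stress factor CHOP, and GARS1 (0.944), the glycyl-tRNA synthetase. For SLC3A2 they were SARS1 (0.972), CEBPG (0.969) and AARS1 (0.969), of which SARS1 and AARS1 charge the tRNAs for serine and alanine. SLC7A5 was most like TIMM44 (0.948), ZNF274 (0.944) and TARS1 (0.944), SLC1A5 most like AARS1 (0.961), MUS81 (0.953) and CEBPG (0.951), SLC1A4 most like YARS1 (0.961), ZNF274 (0.952) and TRAK2 (0.952), and SLC7A1 most like GARS1 (0.963), YARS1 (0.96) and CEBPG (0.957). CEBPG was among the 3 nearest of 4 members and a tRNA synthetase among those of all 6. With the time means removed the 18 correlations fell to between 0.649 (SLC7A11 with DDIT3) and 0.846 (SLC7A5 with TIMM44).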

How the data were processed

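The values are signal intensities of Affymetrix arrays on a linear scale, which the authors deposited as 1 table; they were made with MAS5, per the submitters' processing notes, whose version is not given in the sources used here. Its 22283 rows include 68 controls, which were dropped. The platform annotation gave 1 symbol to 19065 probe sets, several to 1043 and none to 2107. All 54 arrays fell into 27 groups of 2 by their labels.

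Signals were turned to log2(signal + 12.49), the 10th percentile of all values, and probe sets were kept where at least 1 group mean reached the median of all values, a signal of 138.9, which left 13422. limma 3.58.1 in R 4.3.3 fitted all 27 group means (lmFit, eBayes with an intensity trend, 27 residual degrees of freedom). A comparison of treatments was the F test over its 3 times, with the mean as its size; a comparison of times was the F test of 8 and 16 h against 4 h, with 16 minus 4 h as its size. Errors are standard errors of the fit, and p-values are adjusted by Benjamini-Hochberg over all probe sets kept. The fit was checked on simulated data.

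Genes were named by a rule: the 6 members by their passing probe set of highest mean signal, up to 4 called genes of each list, and the 3 genes most correlated with each member. The members and lists were chosen with earlier results of these data known. The alternatives were other pseudocounts, filters, scalings, variance models, probe set rules and sets of arrays, and a replicate block. Replicate numbers were checked as pairs by correlating deviations from the group means: within 8 h all 36 pairs of groups exceeded 0.1 (median 0.428), against 27 of 36 at 4 h and 31 of 36 at 16 h. Deviations were thus most alike within 8 h, and values with a block within 8 h stand beside the results whose call it changed. The medians at 4 and 16 h were 0.2 and 0.205, and the labels do not say what a replicate number marks. Promoter windows came from RefSeq on GRCh38.p14. Protein sequences were not used here.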

Additional observations from a re-analysis of the deposited data

Results flagged for a closer look

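The effect of TNF 5 on SLC7A11 differed between the times. The 4 h difference from untreated cells on the log2 scale was 0.25, that of 8 h was 1.35 and that of 16 h was 0.18, so that 16 minus 4 h was -0.06, and the limma F test of the change over the 3 times gave an adjusted p of 0.0266. In TNF 5 the signals at 8 h were 2102 and 1369.8 against 696 and 623 in untreated cells. The call was lost in 7 of the 12 fits that left out an array (highest adjusted p 0.296, without replicate 1 of TNF 5 at 8 h). The 7 were replicate 1 of TNF 5 and both replicates of untreated cells at 8 h, and replicate 2 of both treatments at 4 and 16 h.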

How the results depend on the processing

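Of 42 called changes of the members, all 42 kept their direction and their call with no pseudocount, with a pseudocount at the 25th percentile and with a stricter filter, 41 with quantile normalization, 38 without the filter, 38 without the intensity trend, 34 without the 2 arrays of high ACTB ratio, 31 with median centring and 29 with the mean of a gene's probe sets; 15 of 36 kept it in fits to the treatments compared alone, which have fewer arrays, and 19 of 30 without the 8 h arrays. The 42 include changes that do not use the 2 arrays of high ACTB ratio. The 8 calls lost without those arrays were all in comparisons that use them. The 16 minus 4 h median of all probe sets was 0.0054 as deposited, -0.0271 with quantile normalization and -0.0354 with median centring. Signs reversed for SLC7A1 in TNF 100 added to insulin 500 with median centring (0.043), with the mean of its probe sets (0.13) and with single arrays left out (-0.0997 to 0.0063, highest without replicate 2 of the mixture at 4 h), for SLC3A2 in TNF 5 (-0.052) and SLC7A11 in insulin 500 (-0.0897) without the 8 h arrays, and for the change over time of SLC7A11 in TNF 5 with single arrays left out (-0.36 to 0.24, highest without replicate 2 of untreated cells at 16 h).

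Counts of members called that moved by over 1.5 times are given here, and the cause was not tested. Without the 8 h arrays they were 2 for any difference among treatments, 1 for EGF 100 against insulin 500, and 0 for insulin 500 added to TNF 100, TNF 5, EGF 100, insulin 500, TNF 100 against TNF 5 and the change over time in TNF 5. In fits to the treatments compared alone they were 1 for TNF 5 and 0 for EGF 100, insulin 500, insulin 500 added to TNF 100, TNF 100 added to EGF 100, TNF 100 against TNF 5 and the change over time in TNF 5. With the mean of probe sets they were 1 for EGF 100 against insulin 500 and 0 for EGF 100, insulin 500, TNF 100 added to EGF 100, TNF 100 against TNF 5 and the change over time in TNF 5. With median centring they were 3 for any difference, 1 for TNF 5 and 0 for insulin 500 and the change over time in TNF 5. Quantile normalization gave 1 for EGF 100 against insulin 500 and 0 for TNF 100 added to EGF 100; no pseudocount and the stricter filter each gave 1 for EGF 100 against insulin 500, and no intensity trend 0 for insulin 500. Without the 2 arrays of high ACTB ratio they were 2 for insulin 500 added to TNF 100 and 0 for insulin 500 and TNF 100 against TNF 5. Smaller moves were 5 of 6 for time in untreated cells with the mean of probe sets and in the fit to untreated arrays alone, 4 for any difference with the mean of probe sets, 2 for TNF 100 added to insulin 500 with median centring, the mean of probe sets, the treatments alone and no 8 h arrays, and, for insulin 500 added to TNF 100, 3 without the filter, with median centring, without the intensity trend and with the mean of probe sets and 5 with quantile normalization and both blocks by time.

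With the replicate block within 8 h all 42 called changes kept their call and 8 were added, 5 over the times and 3 at 8 h; the counts became 3 for TNF 100 against TNF 5, 1 for EGF 100 against insulin 500 and 1 for the change over time in insulin 500, and it changed no other call beyond those given in the report. With a block within each time 22 were added, 10 of them over the times, and the labels do not show that the numbers pair the arrays. The counts became 4 for TNF 100 against TNF 5, 2 for TNF 100 against untreated and 2 for the change over time in TNF 5. They became 1 for the change over time in insulin 500 and 1 for EGF 100 against insulin 500. A block over all times added 5, 2 of them over the times. Its counts were 2 for TNF 100 against TNF 5 and 1 for EGF 100 against insulin 500.

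With each array left out in turn, the count ranged from 3 to 5 for any difference, 2 to 4 for insulin 500 added to TNF 100, 2 to 3 for TNF 100 added to insulin 500, 5 to 6 for time in untreated cells, 1 to 2 for TNF 5, and 0 to 1 for TNF 100 against TNF 5, EGF 100, insulin 500, EGF 100 against insulin 500, TNF 100 added to EGF 100 and the change over time in TNF 5. Time over all treatments stayed at 6, and TNF 100 against untreated, EGF 100 added to TNF 100, both low-dose mixtures, both interactions and the other changes over time stayed at 0.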
